A study of Mus musculus with 11 samples.

Results

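Neuronal pentraxin 2 (Nptx2) and 3 further genes that neurons switch on late after activity, Bdnf, Ptgs2 and Rgs2, were followed in ribosome footprints of mouse cortex 3 h after a stroke, together with 2 related pentraxins, Nptx1 and Nptxr, that are less tied to activity. The genes were chosen by name and not by a threshold on a measured value. Where a gene had several transcripts in the table, the one with the most counts over the 11 libraries stood for it. All 6 were found among the 4338 genes of the footprint table, and all 6 passed the filter on low counts that kept 3835 genes.

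The mice were wild-type C57BL6 aged 7 to 8 weeks, in 3 groups. The ipsilateral group (4 libraries, replicates 2, 4, 5 and 6) was cortex on the side of a middle cerebral artery occlusion (MCAO), in which a nylon filament blocked the right artery for 35 min and blood then flowed again for 3 h. The contralateral group (4 libraries, replicates 1, 4, 5 and 6) was cortex from the opposite hemisphere of mice with this occlusion, also after 3 h of reflow. The sham group (3 libraries, replicates 1, 2 and 5) was cortex of mice that had anaesthesia and exposure of the arteries with no filament, and the side taken was not given. All mice of all groups had isoflurane and neck surgery, so no library is from an unoperated animal. One replicate number stands for one day of surgery, and the labels do not say how many mice each library holds. For the ipsilateral libraries the tissue label names the opposite hemisphere, while titles and descriptions say ipsilateral. The titles and descriptions were followed here.

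Neuronal pentraxins are secreted or membrane-bound proteins that gather AMPA-type glutamate receptors at excitatory synapses, many of them on parvalbumin interneurons. Nptx2, also called Narp, is the member that rises with neuronal activity, Nptx1 is its constitutive partner, and Nptxr anchors their complexes in the membrane. Neuronal activity first induces transcription factors such as Fos and then a later set of effectors. Among these are Bdnf, the growth factor that signals through TrkB, Ptgs2, the inducible cyclooxygenase (COX-2) that starts prostaglandin synthesis, and Rgs2, which shortens signalling by Gq-coupled receptors.

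The 3 pentraxins had to be told apart by short reads, so a stretch of each coding sequence around a conserved family motif is shown, 60 nucleotides in sense direction with the codons of the pentraxin family signature in capitals (mm10, GENCODE vM21).
Nptx2, chr5:144555321-144555380, plus strand: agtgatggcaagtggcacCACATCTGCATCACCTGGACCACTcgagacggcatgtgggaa
Nptx1, chr11:119543278-119543337, minus strand: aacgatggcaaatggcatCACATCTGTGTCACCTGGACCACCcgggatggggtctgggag
Nptxr, chr15:79790362-79790421, minus strand: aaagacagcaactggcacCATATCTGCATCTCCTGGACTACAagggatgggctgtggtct
In this stretch Nptx2 differed from Nptx1 at 13 of 60 positions and from Nptxr at 17 of 60. Over the aligned coding sequences Nptx2 was 67.9% identical to Nptx1, with 16 nucleotides as the longest identical run, and 66.9% identical to Nptxr, with a longest run of 19. No 28-nucleotide word, about the length of a footprint, was shared between any pair of the 3 transcripts.

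In mm10 the genes lie as follows. Nptx2 spans chr5:144545902-144557478 on the plus strand with 5 exons and a coding sequence of 1290 nucleotides. Nptx1 spans chr11:119538719-119547753 on the minus strand, with 5 exons and 1299 coding nucleotides. Nptxr, at chr15:79786351-79804766 on the minus strand, has 5 exons and 1482 coding nucleotides. Bdnf runs from chr2:109674700-109727007 on the plus strand, Ptgs2 from chr1:150100031-150108227 on the plus strand with 10 exons, and Rgs2 from chr1:143999338-144004161 on the minus strand with 5 exons. Nptx2, Ptgs2 and Rgs2 shared no exon with another annotated gene.

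Counts of Nptxr and Bdnf have limits set by the annotation. Nptxr shares 890 exonic nucleotides with Npcd, an overlapping gene on the same strand, and 17.6% of the 28-nucleotide words of the Nptxr transcript occur in transcripts of other genes, so its values are uncertain. All 11 listed Bdnf transcripts, which differ in their first exon, carried the same count in every library, so the use of single Bdnf promoters cannot be read from these data. The Bdnf transcript used also overlaps the antisense gene Gm45346 by 497 nucleotides, and how strand was treated in counting is not given in the sources used here.

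Libraries were shallow. The total was 35067 to 137340 counts in ipsilateral libraries, 137373 to 571352 in contralateral libraries and 64462 to 256654 in sham libraries. One Nptx2 footprint was therefore worth most in ipsilateral replicate 4, the shallowest library. Every ipsilateral library was shallower than every contralateral one, so depth differed with side. The part of depth in the differences between the sides was not tested. Levels are given as CPM, a gene's count as a share of the library total, scaled by TMM factors that correct for differences in library makeup. Excitatory neuron markers summed to 5246 to 7237 CPM in ipsilateral, 5389 to 7908 CPM in contralateral and 5901 to 7560 CPM in sham libraries over the 12 of 15 listed genes analysed here. In such bulk tissue, fewer cells of a type and fewer footprints per cell cannot be told apart.

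Nptx2 was higher in cortex on the occluded side than in the opposite hemisphere. It had 17, 17, 21 and 48 counts in ipsilateral replicates 2, 4, 5 and 6, which were 127, 499, 260 and 413 CPM. Contralateral replicates 1, 4, 5 and 6 had 15, 13, 25 and 61 counts, or 101, 99.4, 84.5 and 108 CPM. All 4 ipsilateral libraries lay above all 4 contralateral ones, by a narrow margin for ipsilateral replicate 2, whose exact 95% counting interval was 74.0 to 203 CPM. Nptx2 averaged 325 ± 165 CPM in ipsilateral and 98.3 ± 10.0 CPM in contralateral cortex (SD, n = 4 each). The fitted difference was 1.56 ± 0.28 on the log2 scale (SE), a 2.95-fold higher level (edgeR quasi-likelihood test, Benjamini-Hochberg adjusted p = 0.00250). Nptx2 had the 3rd smallest p among the 3835 genes tested.

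Nptx2 was the 1 gene of the 6 called in this comparison, against 0.365% of all genes tested (14 genes, 13 higher and 1 lower in ipsilateral cortex). The call by edgeR missed the threshold without ipsilateral replicate 6 (log2 change 1.26, adjusted p = 0.0507) and when counts of all transcripts of each gene were summed (1.60, adjusted p = 0.0563), while the direction stayed. Without the 2 shallowest libraries the edgeR adjusted p was 0.0197 for a log2 change of 1.39. The fit of all 11 libraries shares information on spread between groups. With only these 2 groups fitted, the edgeR adjusted p was 0.0179 for a log2 change of 1.55.

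Against sham cortex the same ipsilateral values were split. Sham replicates 1, 2 and 5 had 33, 10 and 27 Nptx2 counts, or 130, 157 and 143 CPM, with a mean of 143 ± 13.5 CPM (SD, n = 3). Ipsilateral replicates 4, 5 and 6 lay above every sham library and ipsilateral replicate 2 lay below every one. The log2 difference was 1.07 ± 0.30 (SE) and missed the threshold (edgeR adjusted p = 0.153), where 0.104% of genes were called. Ipsilateral replicate 2 decided this result: without it the log2 difference was 1.41 and the edgeR adjusted p was 0.00866.

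In the opposite hemisphere Nptx2 lay lower than in sham cortex in every library, 84.5 to 108 CPM in contralateral against 130 to 157 CPM in sham cortex. That difference, −0.49 ± 0.30 on the log2 scale, did not pass the test (edgeR adjusted p = 0.947). With surgery day as a replicate block it was −0.92 (edgeR unadjusted p = 0.00793, adjusted p = 0.892). The spread among ipsilateral libraries was the widest, with a coefficient of variation of 50.7% in ipsilateral, 10.2% in contralateral and 9.43% in sham cortex.

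**Figure D1:**
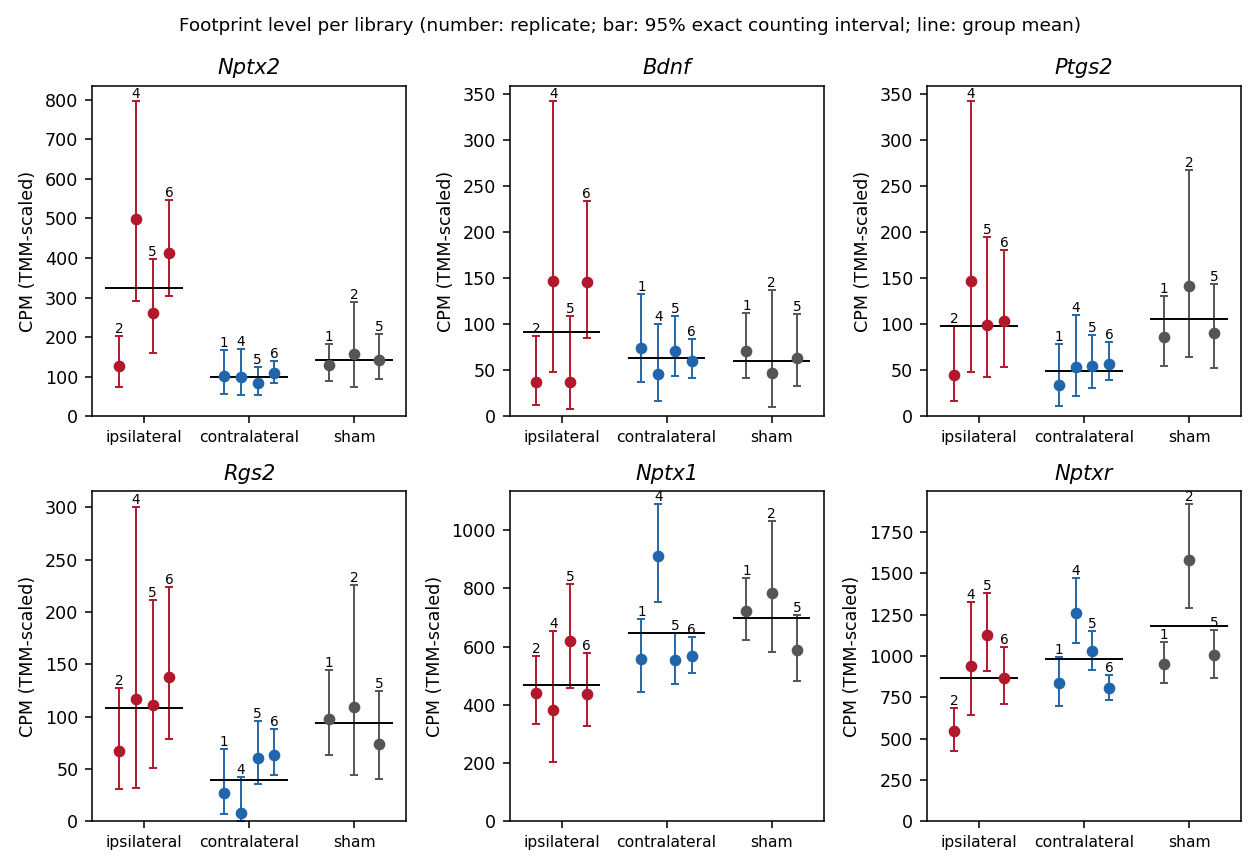
Footprint level of each gene in each library (TMM-scaled CPM, linear axes from 0), with points for libraries numbered by replicate, bars for the exact 95% counting interval and a line for the group mean. Nptx2 sat at 127 to 499 CPM in the 4 ipsilateral libraries, at 84.5 to 108 CPM in the 4 contralateral libraries and at 130 to 157 CPM in the 3 sham libraries, while Nptx1 and Nptxr overlapped between groups.

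Neither related pentraxin passed the test in any comparison. Nptx1 had 441, 381, 619 and 439 CPM in ipsilateral replicates 2, 4, 5 and 6, against 559, 910, 554 and 568 CPM in contralateral replicates 1, 4, 5 and 6 and 722, 783 and 588 CPM in sham replicates 1, 2 and 5. Ipsilateral replicates 2, 4 and 6 lay below every contralateral and every sham library, while ipsilateral replicate 5 lay among them. The log2 difference of Nptx1 was −0.42 ± 0.19 against contralateral cortex (edgeR adjusted p = 0.570) and −0.53 ± 0.20 against sham cortex (edgeR adjusted p = 0.426), neither past the threshold. Between contralateral and sham cortex it was −0.11 ± 0.19 (edgeR adjusted p = 0.988). Without contralateral replicate 4, the highest library, the differences were −0.25 for ipsilateral against contralateral and −0.29 for contralateral against sham cortex. With 1 library left out at a time, the Nptx1 difference stayed below 0 in all 3 comparisons, and that between contralateral and sham cortex ranged from −0.29 to −0.033.

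Nptxr had 546, 939, 1126 and 869 CPM in ipsilateral replicates 2, 4, 5 and 6. Contralateral replicates 1, 4, 5 and 6 had 835, 1262, 1027 and 805 CPM, and sham replicates 1, 2 and 5 had 954, 1581 and 1006 CPM. The groups overlapped throughout. The log2 difference was −0.19 ± 0.20 for ipsilateral against contralateral (edgeR adjusted p = 0.890), −0.43 ± 0.22 for ipsilateral against sham (edgeR adjusted p = 0.671) and −0.24 ± 0.21 for contralateral against sham cortex (edgeR adjusted p = 0.964). The differences moved when single libraries were left out. Without ipsilateral replicate 2 the difference was −0.013 against contralateral and −0.24 against sham cortex, and without contralateral replicate 4 it was −0.073 for ipsilateral against contralateral cortex. Without sham replicate 2 it was −0.21 for ipsilateral against sham and −0.00024 for contralateral against sham cortex. With each other library left out the 3 differences also stayed below 0, and none was called. A second listed Nptxr transcript, with 1468 summed counts against 1877 for the one used, had the same counts in all 11 libraries as a transcript of Npcd, and with it no Nptxr difference was called either.

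Whether Nptx2 changed relative to its relatives was tested on the counts within each library, which needs no scaling between libraries. Nptx2 made up 11.4%, 27.4%, 13.0% and 24.0% of the pentraxin footprints in ipsilateral replicates 2, 4, 5 and 6. It made up 6.76%, 4.38%, 5.07% and 7.31% in contralateral replicates 1, 4, 5 and 6, and 7.17%, 6.21% and 8.23% in sham replicates 1, 2 and 5. Every ipsilateral share was above every other share, including that of ipsilateral replicate 2. In that library Nptx2 itself, at 127 CPM, lay below every sham library. Its Nptxr level, 546 CPM, was the lowest of all libraries, and its Nptx1 level, 441 CPM, lay below every contralateral and sham library. A low Nptx1 or Nptxr level raises the share and the ratios below as a high Nptx2 level does. The mean share was 18.9 ± 7.96% in ipsilateral (SD, n = 4), 5.88 ± 1.38% in contralateral (n = 4) and 7.21 ± 1.01% in sham cortex (n = 3). The exact 95% interval of the share was 6.79 to 17.6% in ipsilateral replicate 2, which reaches into the contralateral and sham range, and 16.9 to 40.2% in ipsilateral replicate 4.

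**Figure D2:**
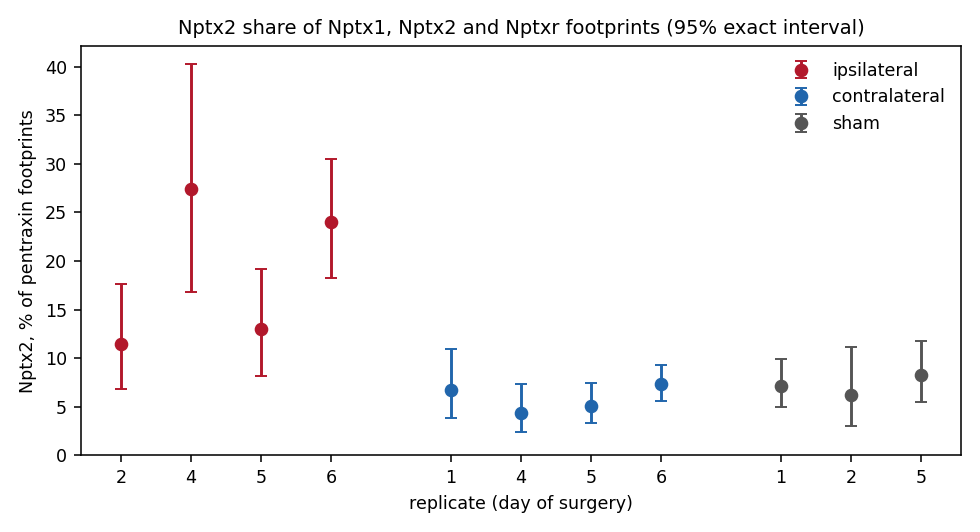
Nptx2 as a percentage of all Nptx1, Nptx2 and Nptxr footprints in each library (points, with exact 95% Clopper-Pearson intervals that cover counting error only), by replicate within each group. The 4 ipsilateral shares lie at 11.4 to 27.4%, above the 4 contralateral shares at 4.38 to 7.31% and the 3 sham shares at 6.21 to 8.23%.

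The log2 ratio of Nptx2 to Nptx1 counts was higher by 1.98 in ipsilateral than in contralateral libraries (two-sided exact permutation test, p = 0.0286, adjusted p = 0.0571 over 6 ratio tests) and by 1.57 than in sham libraries (exact p = 0.0571, adjusted p = 0.0857). For Nptx2 to Nptxr the difference was 1.74 against contralateral (exact p = 0.0286, adjusted p = 0.0571) and 1.45 against sham libraries (exact p = 0.0286, adjusted p = 0.0571). Ipsilateral ratios did not overlap with either other group in any of these 4 tests. The smallest p these group sizes allow is 0.0286, which 3 of the 6 ratio tests reached. None of the 6 passed after adjustment, and with these group sizes a pass needed more tests at that smallest p. Contralateral minus sham, the log2 ratio differed by −0.41 for Nptx2 to Nptx1 (exact p = 0.171, adjusted p = 0.206) and by −0.29 for Nptx2 to Nptxr (exact p = 0.286, adjusted p = 0.286), with overlapping groups.

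Bdnf passed the test in no comparison. It had 5, 5, 3 and 17 counts in ipsilateral replicates 2, 4, 5 and 6, which were 37.4, 147, 37.1 and 146 CPM. Contralateral replicates 1, 4, 5 and 6 had 74.1, 45.9, 70.9 and 60.4 CPM, and sham replicates 1, 2 and 5 had 70.7, 47.0 and 63.5 CPM. Of the ipsilateral libraries, replicates 4 and 6 lay above all contralateral and sham libraries, and replicates 2 and 5 lay below all of them. Bdnf averaged 91.8 ± 63.1 CPM in ipsilateral, 62.8 ± 12.7 CPM in contralateral and 60.4 ± 12.2 CPM in sham cortex (SD, n = 4, 4 and 3).

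The log2 difference of Bdnf was 0.38 ± 0.38 for ipsilateral against contralateral (edgeR adjusted p = 0.879), 0.36 ± 0.43 for ipsilateral against sham (edgeR adjusted p = 0.905) and −0.02 ± 0.37 for contralateral against sham cortex (edgeR adjusted p = 1.00). At 3 to 17 counts a library the counting intervals of the ipsilateral values were wide, 7.65 to 108 CPM for replicate 5 and 47.6 to 342 CPM for replicate 4. Without ipsilateral replicate 6 the Bdnf differences against contralateral and sham cortex were −0.24 and −0.26.

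Ptgs2 had its lowest group mean in the opposite hemisphere, though ipsilateral replicate 2 lay below contralateral replicates 4, 5 and 6. It had 44.8, 147, 99.0 and 103 CPM in ipsilateral replicates 2, 4, 5 and 6 (6, 5, 8 and 12 counts). Contralateral replicates 1, 4, 5 and 6 had 33.7, 53.5, 54.0 and 56.8 CPM (5, 7, 16 and 32 counts). Sham replicates 1, 2 and 5 had 86.4, 141 and 90.0 CPM (22, 9 and 17 counts). All contralateral libraries lay below all sham libraries, and ipsilateral replicates 4, 5 and 6 lay above all contralateral ones.

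For Ptgs2 the log2 difference was −0.88 ± 0.33 for contralateral against sham (edgeR unadjusted p = 0.0101, adjusted p = 0.785), 0.73 ± 0.36 for ipsilateral against contralateral (adjusted p = 0.653) and −0.16 ± 0.37 for ipsilateral against sham cortex (adjusted p = 0.974). None passed the threshold. Without ipsilateral replicate 2 the difference from sham was 0.17.

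Rgs2 was also lowest in the opposite hemisphere. It had 67.3, 117, 111 and 138 CPM in ipsilateral replicates 2, 4, 5 and 6 (9, 4, 9 and 16 counts). Contralateral replicates 1, 4, 5 and 6 had 26.9, 7.65, 60.8 and 63.9 CPM (4, 1, 18 and 36 counts), and sham replicates 1, 2 and 5 had 98.2, 110 and 74.1 CPM (25, 7 and 14 counts). Every contralateral library was below every ipsilateral and every sham library, and the value of contralateral replicate 4 rests on 1 count.

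The log2 difference of Rgs2 was 1.08 ± 0.37 for ipsilateral against contralateral (edgeR unadjusted p = 0.00579, adjusted p = 0.310) and −0.87 ± 0.36 for contralateral against sham cortex (edgeR unadjusted p = 0.0193, adjusted p = 0.808). Between ipsilateral and sham cortex it was 0.21 ± 0.38 (edgeR adjusted p = 0.956). These 3 comparisons share libraries, so a low contralateral group enters the first and the second alike.

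**Figure D3:**
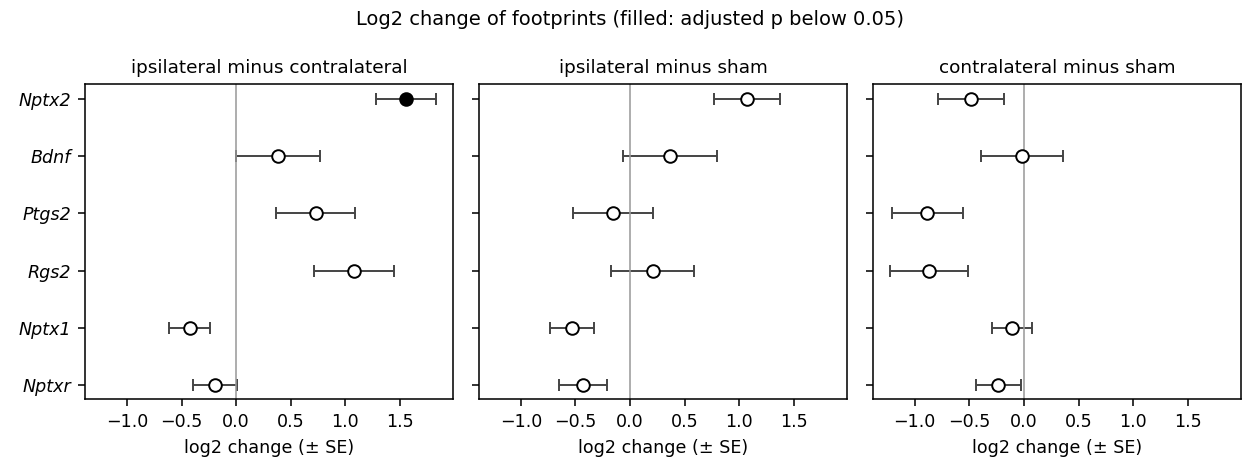
Log2 difference of each gene (points, with bars of 1 SE) in the 3 comparisons, from 1 edgeR fit over all 11 libraries, filled where the adjusted p was below 0.05. Only Nptx2 in ipsilateral against contralateral cortex, at 1.56, is filled, and Ptgs2 and Rgs2 lie at −0.88 and −0.87 in contralateral against sham cortex.

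Counted over the 6 genes, ipsilateral and contralateral libraries did not overlap for Nptx2 and Rgs2, both higher in ipsilateral cortex, where 2.35% of genes tested did so in that direction. Contralateral libraries lay below all sham libraries for Nptx2, Ptgs2 and Rgs2, against 4.15% of genes tested. Ptgs2 and Rgs2 passed the filter on low counts only through their higher ipsilateral and sham levels. For these genes the counts are therefore a description and no test. At an unadjusted p of 0.05 in either direction, edgeR passed 4 of the 6 genes in ipsilateral against contralateral (7.61% of genes tested), 2 in ipsilateral against sham (7.74%) and 2 in contralateral against sham cortex (5.74%). Nptx1 was among those passed in both ipsilateral comparisons and was lower in ipsilateral cortex (edgeR unadjusted p = 0.0287 against contralateral and 0.0118 against sham). The other genes passed there were higher in ipsilateral cortex, and Ptgs2 and Rgs2 were lower in contralateral than in sham cortex. After adjustment the 6 genes gave 1, 0 and 0 calls, and over all genes 0% were called in contralateral against sham cortex. DESeq2 and limma-voom also called Nptx2 alone of the 6, in ipsilateral against contralateral cortex. The adjusted p of Nptx2 there was 0.000733 with DESeq2 and 0.0490 with limma-voom, the latter just under the threshold. However, DESeq2 gave no adjusted p for Bdnf, Ptgs2 and Rgs2 in the ipsilateral comparisons.

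Nptx2 was higher in ipsilateral cortex on each surgery day with libraries of both sides. On days 4, 5 and 6, the log2 CPM difference of Nptx2 between ipsilateral and contralateral cortex was 2.21, 1.50 and 1.83. For Rgs2 it was 2.79, 0.77 and 0.99, and for Ptgs2 it was 1.29, 0.76 and 0.75. Bdnf differed by 1.47 and 1.14 on days 4 and 6 and by −0.77 on day 5. Nptx1 differed by −1.23, 0.16 and −0.37 and Nptxr by −0.42, 0.13 and 0.11, with no shared direction over the 3 days.

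**Figure D4:**
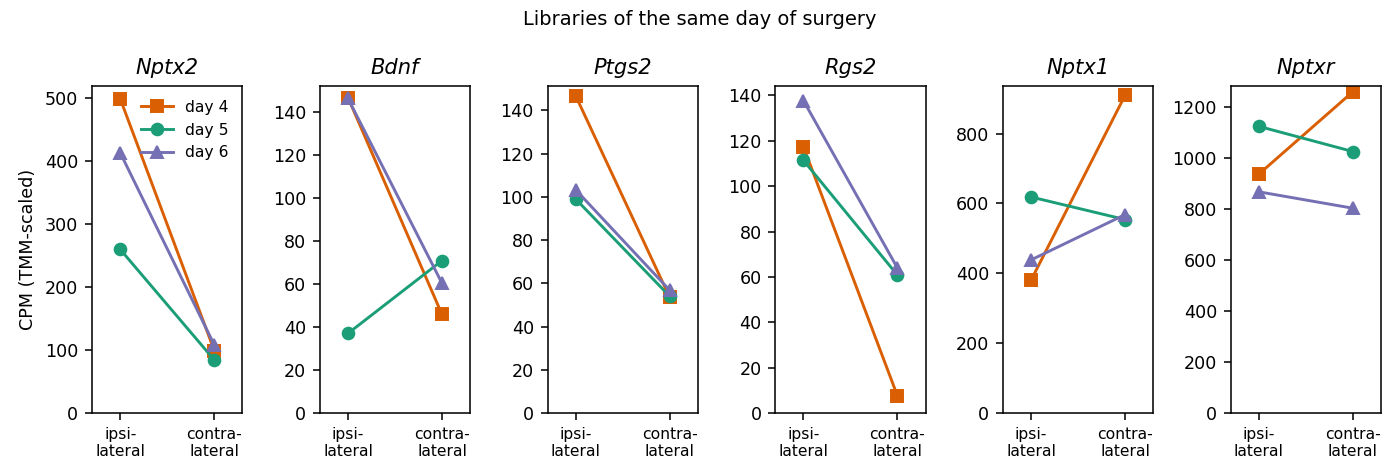
CPM of each gene in ipsilateral and contralateral libraries of the same surgery day (days 4, 5 and 6, 1 line each, linear axes from 0). Nptx2, Ptgs2 and Rgs2 are higher in the ipsilateral library on each of the 3 days, and Bdnf on days 4 and 6.

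Against sham cortex 2 days could be used for each side. Ipsilateral minus sham, Nptx2 differed by −0.28 on day 2 and 0.82 on day 5, Ptgs2 by −1.44 and 0.12, and Rgs2 by −0.62 and 0.52. Contralateral minus sham, Nptx2 differed by −0.33 on day 1 and −0.69 on day 5, Ptgs2 by −1.12 and −0.64, and Rgs2 by −1.53 and −0.25. Ipsilateral replicate 2 was thus the lowest ipsilateral library for Nptx2, Ptgs2, Rgs2 and Nptxr. The sham library of its day was the highest sham library for the same 4 genes and for Nptx1. It was also the shallowest sham library (64462 counts), with 10 counts of Nptx2, 9 of Ptgs2 and 7 of Rgs2. That day had no contralateral library.

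Per kilobase of coding sequence the constitutive pentraxins led in every group. In ipsilateral cortex the order was Nptxr (587 ± 163 CPM per kilobase), Nptx1 (362 ± 79.2), Nptx2 (252 ± 128), Rgs2 (170 ± 46.6), Bdnf (119 ± 81.5) and Ptgs2 (54.2 ± 23.0), all SD over 4 libraries. In contralateral cortex it was Nptxr (663 ± 142), Nptx1 (499 ± 135), Bdnf (81.2 ± 16.4), Nptx2 (76.2 ± 7.77), Rgs2 (62.6 ± 42.8) and Ptgs2 (27.3 ± 5.87). In sham cortex it was Nptxr (796 ± 235), Nptx1 (537 ± 76.9), Rgs2 (148 ± 28.5), Nptx2 (111 ± 10.5), Bdnf (78.0 ± 15.7) and Ptgs2 (58.3 ± 16.8), over 3 libraries. The ranges of mean ± SD of neighbours in these orders overlapped, except that Nptx1 stood above Bdnf in contralateral cortex and above Rgs2 in sham cortex, and Nptx2 stood above Bdnf in sham cortex.

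Footprint levels of Nptx2 and Rgs2 ranked alike over the 11 libraries (Spearman rho 0.95), as did Ptgs2 and Rgs2 (0.87) and Nptx2 and Ptgs2 (0.86), while Bdnf ranked with Nptx2 at 0.19. These values describe libraries that share groups and depth and carry no test, and they change with the measure. After group means were taken out, the Pearson r of log2 CPM was 0.32 for Nptx2 and Rgs2, 0.41 for Ptgs2 and Rgs2, 0.83 for Nptx2 and Ptgs2 and 0.77 for Nptx2 and Bdnf. Among 3830 genes with a mean of at least 50 CPM, the 5 whose log2 CPM followed Nptx2 most closely over the 11 libraries were Add2 (Pearson r 0.92), Cacna1h (0.89), Gm10108 (0.88), C1qb (0.85) and Parp1 (0.85). Add2 codes for an adducin of the membrane skeleton, Cacna1h for a T-type calcium channel, C1qb for a complement C1q chain and Parp1 for a poly-ADP-ribose polymerase of the DNA damage response. Rgs2 was followed most closely by Plk2 (0.89), an activity-induced kinase, Fos (0.87), Irf2bpl (0.86), Sec23ip (0.84) and Ptov1 (0.84).

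The closest genes to Ptgs2 were Sik2 (0.92), a salt-inducible kinase, Prpf19 (0.92), a splicing factor, Agap3 (0.91), Gnaz (0.86), a G protein alpha subunit, and Dnajc6 (0.86), the auxilin of clathrin uncoating. Bdnf was followed most closely by Zzef1 (0.92), Lmo7 (0.90), Sin3b (0.89), a corepressor, Kdm2a (0.87), a histone demethylase, and Nme1 (0.86), a nucleoside diphosphate kinase. By Pearson r, none of the 4 genes had another of the 4 among its 5 closest. Spearman rho gave another order. Nptx2 had a higher rho with Rgs2 (0.95) and Ptgs2 (0.86) than with any of its 5, of which Cacna1h was highest (0.84). Rgs2 likewise had a higher rho with Nptx2 than with any of its 5, of which Fos was highest (0.90). Without ipsilateral replicate 4 the Pearson r with Nptx2 was 0.86 for Add2 and 0.78 for C1qb.

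Activity reaches several of these genes through CREB, a transcription factor that binds the cAMP response element, so the core of that element (CGTCA on either strand) was looked for from 250 bases before to 50 after each start site (RefSeq, GRCm38.p6). The table used gave 9 start sites for Bdnf, Ptgs2 and Rgs2. It gave none for Nptx2, Nptx1 and Nptxr, so the pentraxins could not be searched. The core was present for Ptgs2, for Rgs2 and for 1 of 7 Bdnf start sites, that of exon IV. Each match is shown in 30 bases in the direction of transcription, with the core in capitals.
Bdnf, chr2:109692389-109692418, plus strand: tatgacagctcaCGTCAaggcagcgtggag
Ptgs2, chr1:150100032-150100061, plus strand: gagtcaccactaCGTCAcgtggagtccgct
Rgs2, chr1:144004317-144004346, minus strand: atgcggcgcctaCGTCAacagcgccctcgc
Rgs2, chr1:144004199-144004228, minus strand: ttggggcgtggcTGACGcctccaggtcccg
The first base of the core lay at −35 for Bdnf, at 14 for Ptgs2 and at −185 and −67 for Rgs2, counted from the start site. The core occurs in 20.8% of the 32851 promoters in the table and in 39.4% of the 2904 tested genes with an entry, so its presence in 3 genes describes them and does not set them apart. The full element TGACGTCA was in none of the 9 windows, the AP-1 site TGANTCA in 1 Bdnf window, and the E-box CACGTG in that of Ptgs2, where it overlaps the core. The full element contains the core. Among all promoters the full element was found in 1.79%, the AP-1 site in 7.81% and this E-box in 7.15%. The serum response element, found in 1.63% of all promoters, was in none of the 9 windows.

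Other late activity-regulated genes were given from a list of 39, of which 24 were tested. The list also holds Nptx1, described above as a relative less tied to activity. Without Nptx2, Nptx1, Bdnf, Ptgs2 and Rgs2, 19 genes remained, and edgeR, DESeq2 and limma-voom called none of them in any comparison. At an unadjusted edgeR p of 0.05, 3 of the 19 were higher and 0 lower in ipsilateral against contralateral cortex, where 4.8% of all genes tested were higher and 2.82% lower. In ipsilateral against sham cortex 3 were higher and 0 lower, beside 4.28% and 3.47% of all genes. In contralateral against sham cortex 1 was higher and 1 lower, beside 2.63% and 3.1%. The median log2 difference of the 19 was 0.18 in ipsilateral against contralateral cortex, 0.11 in ipsilateral against sham and 0.01 in contralateral against sham, beside 0.01, −0.00 and −0.00 over all genes tested.

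The 4 most abundant of the list encode secreted peptides. Vgf, a neuropeptide precursor induced by BDNF and activity, averaged 1117 ± 271 CPM in ipsilateral, 724 ± 132 CPM in contralateral and 1120 ± 272 CPM in sham cortex. Its log2 difference was 0.63 ± 0.17 for ipsilateral against contralateral (edgeR adjusted p = 0.133) and −0.61 ± 0.18 for contralateral against sham (edgeR adjusted p = 0.659). Scg2, a granin, averaged 1268 ± 106 CPM in ipsilateral, 1023 ± 291 CPM in contralateral and 892 ± 215 CPM in sham cortex. Sst, the interneuron peptide somatostatin, averaged 1261 ± 130 CPM in ipsilateral, 1135 ± 249 CPM in contralateral and 1091 ± 168 CPM in sham cortex. Cck, cholecystokinin, averaged 1741 ± 326 CPM in ipsilateral, 1955 ± 208 CPM in contralateral and 1962 ± 308 CPM in sham cortex. These ± values are SD over 4, 4 and 3 libraries, as for the genes below.

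**Figure D5:**
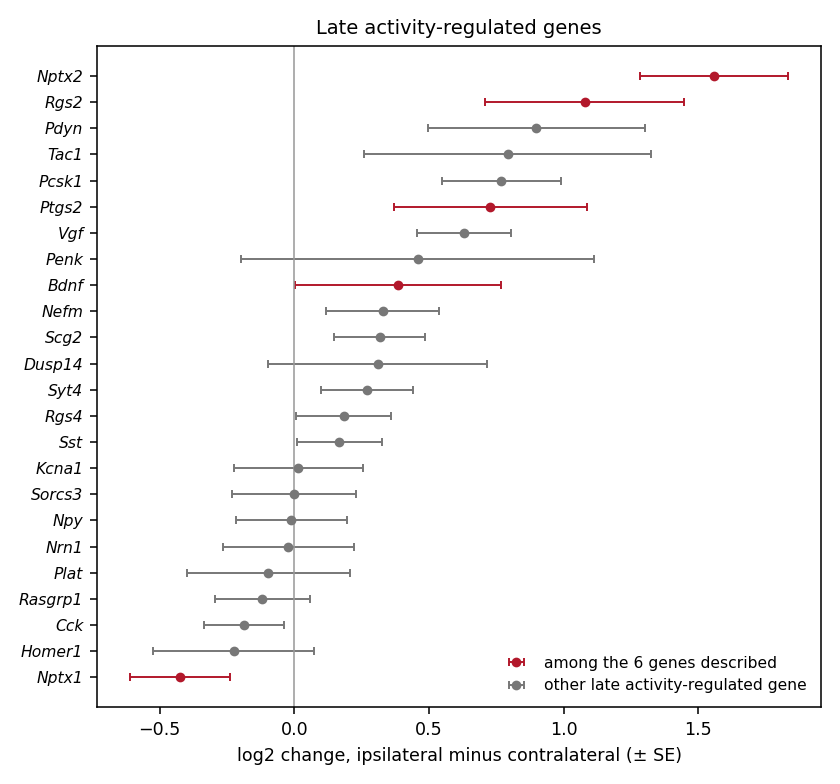
Log2 difference between ipsilateral and contralateral cortex (points, with bars of 1 SE) for the 24 tested genes of the late activity-regulated list, sorted by size. In red are Nptx2, Rgs2, Ptgs2, Bdnf and Nptx1, which the list holds although it is less tied to activity. Nptx2 is the highest point at 1.56 and Nptx1 the lowest at −0.42, and the other genes spread around a median of 0.18.

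Immediate early genes, the transcription factors and effectors induced first, were set beside them. Of 41 listed, 11 were tested. Fos was called in ipsilateral against contralateral cortex, 216 ± 103 CPM in ipsilateral, 21.7 ± 13.1 CPM in contralateral and 123 ± 75.0 CPM in sham libraries (log2 difference 3.03 ± 0.48, edgeR adjusted p = 0.00645), but not by limma-voom. All 11 had a log2 difference above 0 in that comparison, beside 51.3% of all genes tested, with a median of 0.92. At an unadjusted edgeR p of 0.05, 8 were higher, beside 4.8% of all genes. Against sham, ipsilateral cortex had 6 of 11 above 0, beside 50.0% of all genes, and a median of 0.01, with 2 higher at that level, beside 4.28%.

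Contralateral against sham cortex, 1 of the 11 immediate early genes was above 0, beside 49.9% of all genes, with a median of −0.84. EdgeR called none and 7 were lower at an unadjusted p of 0.05, beside 3.1% of all genes, while DESeq2 called 2 lower and limma-voom none. Egr1, a zinc-finger factor, averaged 348 ± 153 CPM in ipsilateral, 159 ± 19.1 CPM in contralateral and 462 ± 230 CPM in sham cortex. Arc, which controls AMPA receptor uptake, averaged 219 ± 120 CPM in ipsilateral, 90.0 ± 34.1 CPM in contralateral and 249 ± 155 CPM in sham cortex. Junb, an AP-1 subunit, averaged 221 ± 115 CPM in ipsilateral, 122 ± 48.8 CPM in contralateral and 203 ± 82.8 CPM in sham cortex. The phosphatase gene Dusp6 averaged 156 ± 95.5 CPM in ipsilateral, 88.0 ± 40.6 CPM in contralateral and 206 ± 50.2 CPM in sham cortex.

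The partners and pathways of the genes gave no edgeR call. Of 23 tested genes for synaptic partners of the pentraxins, edgeR, DESeq2 and limma-voom called none in any comparison, and at an unadjusted edgeR p of 0.05 1 was higher and 3 were lower in ipsilateral against contralateral cortex. Over all genes tested 4.8% were higher and 2.82% lower at that p, which is the background for this list and those of the next 3 paragraphs. The AMPA receptor subunit gene Gria2 averaged 1009 ± 242 CPM in ipsilateral, 1395 ± 134 CPM in contralateral and 1082 ± 262 CPM in sham cortex (log2 difference −0.44 ± 0.16 for ipsilateral against contralateral, edgeR adjusted p = 0.382). Olfm1, a secreted AMPA receptor partner, averaged 1078 ± 305 CPM in ipsilateral, 1345 ± 87.3 CPM in contralateral and 1203 ± 135 CPM in sham cortex. Nrxn3, a presynaptic neurexin gene, differed between ipsilateral and contralateral cortex by −0.05 ± 0.15 on the log2 scale.

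Of 21 tested genes of the neurotrophin pathway none was called by the 3 tools, and 2 were higher and 0 lower in ipsilateral against contralateral cortex at an unadjusted edgeR p of 0.05. Ntrk2, the BDNF receptor TrkB, averaged 1332 ± 236 CPM in ipsilateral, 1122 ± 137 CPM in contralateral and 954 ± 63.1 CPM in sham cortex (log2 difference 0.46 ± 0.16 for ipsilateral against sham, edgeR adjusted p = 0.380). Cpe and Pcsk2, which process precursors in dense-core vesicles, and Sort1, a sorting receptor of pro-BDNF, differed between ipsilateral and contralateral cortex by −0.16 ± 0.13, −0.08 ± 0.15 and −0.21 ± 0.15.

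In the prostaglandin pathway 6 genes were tested and edgeR called none. At an unadjusted edgeR p of 0.05, 1 was higher in ipsilateral against contralateral cortex. In ipsilateral against sham cortex 1 was higher at that p, beside 4.28% of all genes. DESeq2 called 1 higher in ipsilateral against sham, where it called 10 of all 3835 genes. Ptgds, the prostaglandin D synthase of oligodendrocytes and meninges, averaged 1601 ± 554 CPM in ipsilateral, 1052 ± 90.6 CPM in contralateral and 904 ± 24.1 CPM in sham cortex (log2 difference 0.83 ± 0.19 for ipsilateral against sham, edgeR adjusted p = 0.0806). Faah and Mgll, hydrolases of endocannabinoids, and Cbr1, a carbonyl reductase, differed between ipsilateral and contralateral cortex by −0.27 ± 0.28, −0.41 ± 0.26 and 0.09 ± 0.28.

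Among 27 tested genes of RGS proteins and Gq signalling none was called by the 3 tools, and 1 was higher and 1 lower in ipsilateral against contralateral cortex at an unadjusted edgeR p of 0.05. Rgs4, the RGS gene with the highest level, averaged 627 ± 125 CPM in ipsilateral, 528 ± 65.8 CPM in contralateral and 596 ± 113 CPM in sham cortex (log2 difference 0.18 ± 0.18 for ipsilateral against contralateral, edgeR adjusted p = 0.870). Gnas, Itpr1 and Prkcb, which code for a G protein subunit, the IP3 receptor and protein kinase C beta, differed there by 0.04 ± 0.14, −0.10 ± 0.16 and −0.16 ± 0.17.

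In the comparison of ipsilateral with contralateral cortex, in which Nptx2 was called, some oligodendrocyte and blood markers were called too. Of 15 oligodendrocyte markers 10 were tested, and all 10 were above 0, beside 51.3% of all genes tested. EdgeR and DESeq2 called 4 of them and limma-voom 1, where edgeR called 0.365% of all genes tested. Their summed levels were 3254 to 7488 CPM in ipsilateral, 2440 to 3495 CPM in contralateral and 2499 to 3240 CPM in sham libraries. Against sham cortex all 10 were also above 0 in ipsilateral cortex, beside 50.0% of all genes, with a median log2 difference of 0.90. At an unadjusted edgeR p of 0.05, 7 were higher there, beside 4.28% of all genes. EdgeR and limma-voom called none and DESeq2 2, where DESeq2 called 10 of all 3835 genes. All 10 tested microglia markers were above 0 in ipsilateral against contralateral cortex, beside 51.3% of all genes. At an unadjusted edgeR p of 0.05, 4 were higher, beside 4.8% of all genes. Against sham cortex 9 of the 10 were above 0 in ipsilateral cortex, beside 50.0% of all genes, with a median log2 difference of 0.72. At that p 6 were higher there, beside 4.28% of all genes. EdgeR, DESeq2 and limma-voom called no microglia marker in either comparison. The 11 of 16 analysed summed to 1794 to 2366 CPM in ipsilateral, 1394 to 1652 CPM in contralateral and 1127 to 1398 CPM in sham libraries. The 4 blood genes analysed, all globins that can share reads with near-identical copies, summed to 1041 to 2024 CPM in ipsilateral, 566 to 993 CPM in contralateral and 892 to 1323 CPM in sham libraries. EdgeR called 2 of these globins in ipsilateral against contralateral cortex, again beside 0.365% of all genes. The part of these markers in the Nptx2 difference was not tested.

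Blood and striatal marker lists had the lowest medians of the 9 marker lists in contralateral against sham cortex, where every contralateral value of Ptgs2 and Rgs2 lay below the sham values. The excitatory neuron, oligodendrocyte, hippocampal and vascular lists also had medians below 0, at −0.09, −0.05, −0.04 and −0.06, and the other lists had medians above 0. All 4 globins were below 0, with a median log2 difference of −0.70, where 49.9% of all genes were above 0. All 4 were lower at an unadjusted edgeR p of 0.05, beside 3.1% of all genes, but edgeR, DESeq2 and limma-voom called none. Of 16 striatal markers 6 were analysed, with summed levels of 322 to 957 CPM in ipsilateral, 314 to 930 CPM in contralateral and 656 to 1096 CPM in sham libraries. Their median log2 difference was −0.95 for contralateral against sham cortex. At an unadjusted edgeR p of 0.05, 3 of 6 were lower there, beside 3.1% of all genes, and the 3 tools called none. For ipsilateral against contralateral cortex the median was 0.62, with 5 of 6 above 0, beside 51.3% of all genes. Penk, Pdyn and Tac1 are in both this list and that of late activity-regulated genes. Interneuron markers, 12 of 15 analysed, summed to 6086 to 7185 CPM in ipsilateral, 5484 to 6669 CPM in contralateral and 5245 to 6621 CPM in sham libraries. Of these 12, 4 were higher and 0 lower in ipsilateral against contralateral cortex at an unadjusted edgeR p of 0.05. Over all genes tested 4.8% were higher and 2.82% lower there. In ipsilateral against sham cortex 3 were higher and 0 lower, beside 4.28% and 3.47% of all genes. EdgeR, DESeq2 and limma-voom called none of the interneuron markers, and their part in the Nptx2 difference was not tested. Astrocyte markers, all 16 analysed, summed to 11934 to 13231 CPM in ipsilateral, 11937 to 16312 CPM in contralateral and 10652 to 13690 CPM in sham libraries. Of 12 hippocampal and 18 endothelial or pericyte markers only 2 each were analysed. The hippocampal pair summed to 499 to 785 CPM in ipsilateral, 497 to 682 CPM in contralateral and 598 to 673 CPM in sham libraries, and the vascular pair to 198 to 447 CPM in ipsilateral, 240 to 310 CPM in contralateral and 243 to 323 CPM in sham libraries. The part of tissue makeup in the low contralateral Ptgs2 and Rgs2 values was not tested.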

How the data were processed

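Ribosome-protected fragments were prepared from cortex by nuclease digestion, monosome purification and pull-down of the large ribosomal subunit, and sequenced as single-end reads of 69 bases, per the labels' protocols. The deposited table holds raw read counts per Ensembl transcript, made by the authors. The submitters' processing notes name mm10, Bowtie2 and edgeR, and give neither the counting tool nor the annotation release. No total RNA library was analysed, so footprints reflect both RNA level and translation.

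Of 9784 transcripts, 9736 matched GENCODE vM21, and the 48 others (0.306% of counts) were left out. Each gene was represented by 1 transcript, that of most counts over all libraries, and every listed transcript had at least 101 counts in all. This left 4338 genes, of which filterByExpr (minimum count 10) kept 3835. In the fit of ipsilateral and contralateral libraries alone, Bdnf, Ptgs2 and Rgs2 did not pass this filter. Tests of difference used edgeR 4.0.16 under R 4.3.3 (TMM, robust quasi-likelihood fit of all 11 libraries, 3 contrasts, Benjamini-Hochberg over all kept genes, threshold 0.05). Log2 CPM used a prior count of 2, and the pentraxin ratios a pseudocount of 0.5 and two-sided exact permutation tests. The tests were checked on simulated data. Exact Clopper-Pearson intervals (95%) cover counting error only, since amplified reads are not independent molecules.

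Replicate numbers pair the samples by day of surgery, per the series' design text. Same-numbered libraries of different groups deviated from their group means with correlations of −0.139 to 0.224 (7 pairs, median 0.131), against a median of −0.0301 for 33 other pairs. Besides the 6 genes, genes named are those called from each of 6 pathway lists, the 4 most abundant tested genes of each pathway list and the 5 genes closest to each of Nptx2, Bdnf, Ptgs2 and Rgs2. For the 9 marker lists only counts and summed levels are given. One gene of a pathway list that this rule names is not reported here. Penk, Pdyn and Tac1 were named after their values were seen. The genes and lists were chosen with earlier results of these data known. Alternatives were DESeq2 1.42.0, limma-voom 3.58.1, upper-quartile scaling, no filter, 2-group fits, a replicate block, summed transcripts and leaving out libraries.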

Additional observations from a re-analysis of the deposited data

Results flagged for a closer look

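Of 16 group-wise checks for a single library far from the others of its group, 2 stood out, where chance gives about 1 in 20. Ptgs2 in contralateral replicate 1 was 33.7 CPM, below 53.5 to 56.8 CPM in the other 3 contralateral libraries, and rests on 5 counts. Nptx1 in contralateral replicate 4 was 910 CPM, above 554 to 568 CPM in the other 3 contralateral libraries, and rests on 119 counts.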

How the results depend on the processing

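The number of genes called in ipsilateral against contralateral cortex, 14 here, was 8 with upper-quartile scaling, 7 with transcripts summed, 7 without the 2 shallowest libraries (chosen after seeing the data) and 3 (without ipsilateral replicate 2) to 26 (without ipsilateral replicate 5) when 1 library was left out. Against sham, 4 ipsilateral calls became 10 with DESeq2 and 0 to 22 with 1 library left out, and contralateral calls, 0 here, became 2 with DESeq2 and 0 to 3. Nptx2 in ipsilateral against contralateral cortex stayed above 0 under all alternatives run, at 1.60 (edgeR adjusted p = 0.0563) with transcripts summed and at 1.26 to 1.89 (adjusted p 7.5e-06 to 0.0507) with 1 library left out. Against sham it ranged from 0.77 to 1.41 (adjusted p 0.00866 to 0.641). With 1 library left out, Bdnf ranged from −0.24 to 0.73 against contralateral and −0.26 to 0.72 against sham, Ptgs2 from −0.30 to 0.17 and Rgs2 from −0.019 to 0.45 against sham. Bdnf in contralateral against sham cortex, −0.02 here, was 0.010 with DESeq2, 0.012 with upper-quartile scaling, 0.038 with transcripts summed and −0.081 to 0.12 with 1 library left out. The causes were not tested. With the replicate block, Nptx2 in ipsilateral against contralateral cortex was 1.74 (edgeR adjusted p = 0.000605), and the block changed no call of the 6 genes. With 1 to 61 counts a library for Nptx2, Bdnf, Ptgs2 and Rgs2, counting error limits single values.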
